A study of Mus musculus with 6 samples.

Results

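The 10 genes described here encode the OAS family and the other cytosolic sensors of double-stranded RNA: Oas1a, Oas2, Oas3, Oasl1, Oasl2, Ifih1 (MDA5), Ddx58 (RIG-I), Dhx58 (LGP2), Eif2ak2 (PKR) and Zbp1. They were selected on earlier results of these data, the gap between Hep_LPCs and NPC_LPCs in read counts and that between the NPC_LPCs replicates, and were then taken by symbol from the gene count tables. All 10 were found among the 20571 symbols that the 6 tables share. Polyadenylated RNA was sequenced from liver progenitor-like cells (LPCs) of mouse in 3 groups. These are dividing epithelial cells expanded from liver, and each group had 2 libraries. All were of the C57BL/6 strain, labelled as from mice of 6 to 8 weeks, and all were cultured in Transition and Expansion Medium (TEM). Bec_LPCs grew from pieces of intrahepatic bile duct of WT mice, were plated in matrigel, passaged 1 to 2 times and then sorted for Epcam. Hep_LPCs came from purified hepatocytes of ROSA26tdTomato mice given AAV8-TBG-Cre, an adeno-associated virus in which the hepatocyte promoter TBG drives Cre. NPC_LPCs came from purified non-parenchymal cells, which are all liver cells but hepatocytes, taken from AlbCreERT/R26GFP mice, in which the albumin promoter drives an inducible Cre. The culture protocol gives the Hep_LPCs and NPC_LPCs mice as 8 weeks old and keeps 6 to 8 weeks for Bec_LPCs. Cell source, mouse line, virus, preparation and this stated age differ together between the groups, so their parts in a difference cannot be told apart. Since nothing in the labels tells if a group's libraries came from different animals or cultures, the p-values cover library-to-library spread alone, which may be technical.

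Long double-stranded RNA in the cytosol is a mark of viral infection, and it also forms from unedited or mitochondrial transcripts. OAS enzymes that bind it make 2′-5′ linked oligoadenylates, a messenger that leads to breakdown of RNA. RIG-I and MDA5 signal through the adaptor MAVS to interferon genes, PKR stops translation by phosphorylating the initiation factor eIF2, and ZBP1 binds Z-form nucleic acid and can start necroptosis. Nearly all of these genes are themselves raised by interferon, whose signal reaches their promoters through a complex that holds STAT2 and IRF9.

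The libraries held 17575998 to 22985844 counts, so that 3 reads, the limit that a count of 0 allows, amounted to 0.127 to 0.178 CPM (counts scaled to a common library total). Replicates did not spread alike: the median absolute log2 difference between replicates over all genes was 0.0945 in Bec_LPCs, 0.381 in Hep_LPCs and 0.328 in NPC_LPCs. The Bec_LPCs tables have another layout than the others (21834 against 21878 rows), so a difference in counting cannot be told apart from a difference between Bec_LPCs and either other group. Levels below are CPM on TMM-scaled library sizes, replicate 1 before replicate 2.

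The OAS synthetases were near 0 in Hep_LPCs, low in Bec_LPCs and highest in NPC_LPCs. They lie on chromosome 5 in 2 groups (mm10, GENCODE M21). Oas2 (120730333 to 120749853), Oas3 (120753098 to 120777661) and Oas1a (120896256 to 120907521) are on the minus strand, Oas2 ending 3244 bases from Oas3. Oasl2 (114896936 to 114912234) and Oasl1 (114923240 to 114937915) are on the plus strand, 11005 bases apart. All 5 are protein-coding.

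The promoter sequences of these genes, from RefSeq (GRCm38.p6), are shown because the OAS genes did not move as one. RefSeq windows of 250 bases before and 50 after the gene start were matched for 7 of the 10 members, all but Oas2, Dhx58 and Zbp1. Each was searched on both strands for the letters of the interferon-stimulated response element, which are GAAA, any 2 bases and GAAA again (TTTC, any 2 bases and TTTC on the other strand). These stood in 5 of the 7 windows and in 3.44% of 32851 such windows of the genome. Capitals mark the match, and sequences run 5′ to 3′ on the strand of the gene. Those of Oas1a and Oas3 hold it before the start, and those of Oasl2 and Oasl1 do not hold it anywhere in the window.
Oas1a, chr5:120907526-120907775, minus strand: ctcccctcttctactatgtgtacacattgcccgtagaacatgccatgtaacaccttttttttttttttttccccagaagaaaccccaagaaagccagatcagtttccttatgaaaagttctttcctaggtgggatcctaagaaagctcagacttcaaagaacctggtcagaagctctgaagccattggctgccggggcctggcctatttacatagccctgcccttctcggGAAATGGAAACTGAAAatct
Oas3, chr5:120777660-120777909, minus strand: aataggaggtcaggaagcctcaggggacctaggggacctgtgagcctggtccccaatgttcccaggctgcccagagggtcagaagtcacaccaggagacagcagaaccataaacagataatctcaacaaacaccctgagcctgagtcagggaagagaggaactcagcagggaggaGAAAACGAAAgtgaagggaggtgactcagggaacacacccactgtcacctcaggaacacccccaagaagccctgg
Oasl2, chr5:114896684-114896933, plus strand: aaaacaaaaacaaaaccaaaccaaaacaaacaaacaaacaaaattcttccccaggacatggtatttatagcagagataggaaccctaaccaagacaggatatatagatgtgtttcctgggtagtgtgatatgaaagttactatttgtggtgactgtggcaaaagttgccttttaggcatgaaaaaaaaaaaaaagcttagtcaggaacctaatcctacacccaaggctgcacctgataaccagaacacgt
Oasl1, chr5:114922990-114923239, plus strand: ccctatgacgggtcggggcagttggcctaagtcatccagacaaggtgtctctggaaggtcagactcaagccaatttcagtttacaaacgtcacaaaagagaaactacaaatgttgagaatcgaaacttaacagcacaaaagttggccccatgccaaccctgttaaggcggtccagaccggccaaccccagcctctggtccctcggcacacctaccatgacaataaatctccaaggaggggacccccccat
In Oas1a there were 2 matches that overlap, beginning 20 and 14 bases before the start, and in Oas3 1 match began 75 bases before it. The same letters were found within 50 bases after the start in Ifih1 (at base 33), Eif2ak2 (at base 19) and Ddx58 (at base 3, on the opposite strand). For these the match is shown with at most 10 bases on either side.
Ifih1, chr2:62646206-62646233, minus strand: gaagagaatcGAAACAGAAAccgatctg
Eif2ak2, chr17:78882535-78882564, minus strand: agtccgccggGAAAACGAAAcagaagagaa
Ddx58, chr4:40239804-40239833, minus strand: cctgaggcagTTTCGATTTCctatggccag
A match of letters does not show that a factor binds, and its absence says only that these letters are not in this window.

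Oas1a, one of several mouse copies of the OAS1 enzyme, was at 0.886 and 0.257 CPM in Bec_LPCs (21 and 6 reads), 0.0585 and 0.297 CPM in Hep_LPCs (1 and 5 reads), and 12.0 and 21.8 CPM in NPC_LPCs (207 and 429 reads). Both NPC_LPCs libraries lay above all others, while the Bec_LPCs and Hep_LPCs libraries overlapped. A neighbour, Oas1g, has 97.5% identity to Oas1a over 1860 bases of transcript, so reads could be placed on either. Oas1g had 10 and 7 reads in Bec_LPCs, 0 in both Hep_LPCs libraries, and 84 and 202 reads in NPC_LPCs. The sum of both genes was 1.31 and 0.557 CPM in Bec_LPCs, 0.0585 and 0.297 CPM in Hep_LPCs, and 16.8 and 32.1 CPM in NPC_LPCs, again with both NPC_LPCs libraries highest.

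Oas2, the synthetase with 2 OAS units, was at 0.127 and 0.129 CPM in Bec_LPCs (3 reads in each library), at 0 reads in both Hep_LPCs libraries, and at 5.20 and 17.4 CPM in NPC_LPCs. Set against 3 reads in each Hep_LPCs library, its mean CPM was at least 64.0-fold lower in Hep_LPCs than in NPC_LPCs. The NPC_LPCs mean rests mostly on replicate 2. Bec_LPCs and Hep_LPCs were both at or under that limit, so no fold is given between them. Oas3, the longest synthetase and the one most drawn to long double-stranded RNA, was at 1.52 and 0.600 CPM in Bec_LPCs, 0.234 and 0.237 CPM in Hep_LPCs (4 reads in each), and 20.9 and 78.7 CPM in NPC_LPCs. None of its groups overlapped. In pooled reads Oas3 was 219-fold lower in Hep_LPCs than in NPC_LPCs, with an exact 95% interval of 111 to 508 that covers counting error only.

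Oasl2, a mouse synthetase that also carries ubiquitin-like domains, was at 9.03 and 4.12 CPM in Bec_LPCs, 0.234 and 0.178 CPM in Hep_LPCs (4 and 3 reads), and 12.2 and 237 CPM in NPC_LPCs. Its 3 groups did not overlap, but Bec_LPCs replicate 1 lay close to NPC_LPCs replicate 1, and NPC_LPCs replicate 2 stood far above both. Pooled reads gave a level 639-fold lower in Hep_LPCs than in NPC_LPCs (95% counting interval 310 to 1590).

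Oasl1 broke this order. It lacks synthetase activity, and in mouse cells it is known to hold back translation of the Irf7 messenger RNA. Its level was 3.88 and 3.13 CPM in Bec_LPCs (92 and 73 reads), 24.9 and 49.4 CPM in Hep_LPCs (425 and 832 reads), and 1.79 and 20.3 CPM in NPC_LPCs (31 and 399 reads). Both Hep_LPCs libraries were the highest of the 6. The Bec_LPCs libraries fell between the NPC_LPCs libraries. Only 38 bases of its exons (1.72%) overlap another annotated gene, the antisense transcript Gm13822, and the strand setting of the counting was not stated in the sources used here.

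The make-up of the OAS family therefore differed between groups. Of the reads on the 5 OAS genes, Oasl1 took 25.1% and 38.0% in Bec_LPCs (95% Wilson intervals 20.97% to 29.8% and 31.5% to 45.1%). It took 97.9% and 98.6% in Hep_LPCs (96.1% to 98.9% and 97.5% to 99.2%). In NPC_LPCs it took 3.44% and 5.41% (2.43% to 4.84% and 4.91% to 5.94%). The intervals of different groups do not overlap, and they cover counting error only. Summed over the other 4 genes, expression was 11.6 and 5.10 CPM in Bec_LPCs, 0.527 and 0.712 CPM in Hep_LPCs, and 50.3 and 355 CPM in NPC_LPCs. Per kilobase of exon, the leading OAS gene was Oasl2 in Bec_LPCs replicate 1 (52.8% of the family's CPM per kb), Oasl1 in Bec_LPCs replicate 2 (46.8%) and in both Hep_LPCs libraries (98.6% and 98.8%). In NPC_LPCs it was Oas1a in replicate 1 (37.7%) and Oasl2 in replicate 2 (64.5%), so the NPC_LPCs replicates differed in make-up as well as in level.

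**Figure D1:**
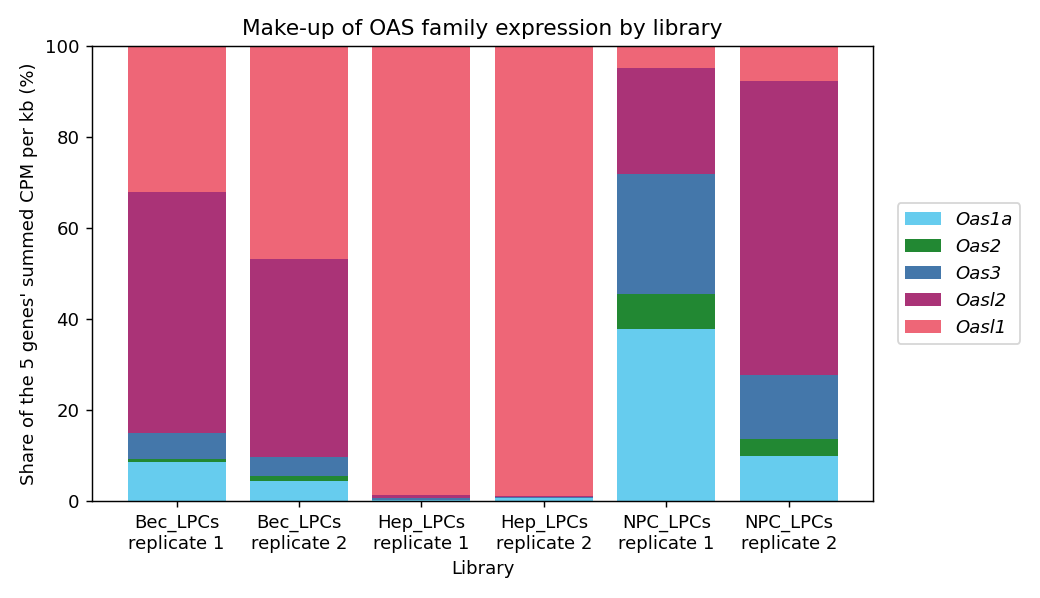
Share of each OAS gene in the family's summed CPM per kilobase of exon (%), 1 stacked bar for each library. Oasl1 fills 98.6% and 98.8% of the Hep_LPCs bars, against 4.83% and 7.81% of the NPC_LPCs bars, and Oas1a leads in NPC_LPCs replicate 1 only.

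The RIG-I-like receptors were expressed in every library and varied less than the OAS synthetases, apart from Dhx58. Ddx58, which recognises short double-stranded RNA with triphosphate ends (chromosome 4, 40203773 to 40239828, minus strand), was at 39.8 and 35.4 CPM in Bec_LPCs, 16.3 and 24.4 CPM in Hep_LPCs, and 102 and 249 CPM in NPC_LPCs. Ifih1, the sensor of long double-stranded RNA (chromosome 2, 62595798 to 62646255, minus strand), was at 31.9 and 27.7 CPM in Bec_LPCs, 10.5 and 10.1 CPM in Hep_LPCs, and 45.7 and 132 CPM in NPC_LPCs. For both receptors no groups overlapped, with Hep_LPCs lowest, Bec_LPCs between and NPC_LPCs highest. The pooled level in Hep_LPCs was 8.84-fold lower than in NPC_LPCs for Ddx58 and 8.87-fold lower for Ifih1 (95% counting intervals 8.17 to 9.57 and 7.94 to 9.93).

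Dhx58, which has no signalling domain and tunes the other receptors (chromosome 11, 100694884 to 100704271, minus strand), was at 1.65 and 0.814 CPM in Bec_LPCs (39 and 19 reads), 0.117 and 0.593 CPM in Hep_LPCs (2 and 10 reads), and 2.14 and 33.0 CPM in NPC_LPCs (37 and 650 reads). NPC_LPCs replicate 1 lay close to Bec_LPCs, and only NPC_LPCs replicate 2 was far above the rest. An antisense transcript, Dhx58os, overlaps 141 bases of its exons (5.85%). Among the 3 receptors' CPM per kb, Ddx58 held 61.2% and 62.9% in Bec_LPCs, 68.2% and 75.0% in Hep_LPCs, and 74.0% and 62.9% in NPC_LPCs, the leading share in each library.

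Eif2ak2, the kinase PKR (chromosome 17, 78852564 to 78882573, minus strand), showed the smallest spread of the 10 genes. It was at 85.0 and 80.1 CPM in Bec_LPCs, 62.9 and 66.4 CPM in Hep_LPCs, and 131 and 287 CPM in NPC_LPCs. Its groups did not overlap, and its pooled level was 3.32-fold lower in Hep_LPCs than in NPC_LPCs (95% counting interval 3.16 to 3.48). Per kilobase it was the most highly expressed member in both Bec_LPCs libraries, Hep_LPCs replicate 1 and NPC_LPCs replicate 1. Oasl1 led in Hep_LPCs replicate 2 and Oasl2 in NPC_LPCs replicate 2. The noncoding transcript Gm26637 overlaps 174 bases of its exons (4.03%) on the other strand.

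Zbp1 (chromosome 2, 173206612 to 173218923, minus strand) was barely detected outside NPC_LPCs. It was at 0.211 and 0.129 CPM in Bec_LPCs (5 and 3 reads), 0.117 and 0 CPM in Hep_LPCs (2 and 0 reads), and 0.982 and 13.2 CPM in NPC_LPCs (17 and 259 reads). With so few reads, the counting interval of its pooled ratio between Bec_LPCs and Hep_LPCs (2.89, 95% interval 0.576 to 27.9) includes 1. In bulk RNA, fewer expressing cells and less RNA per cell cannot be told apart for this or any other member.

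**Figure D2:**
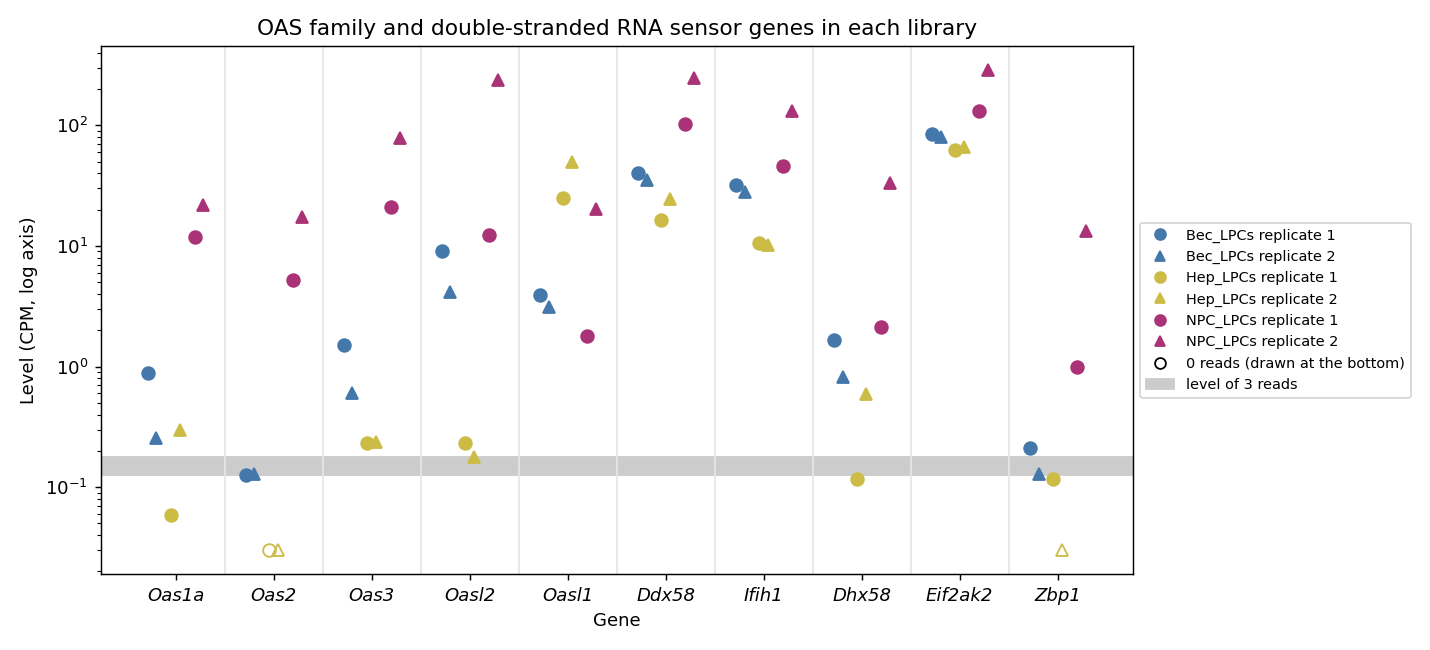
Level of each of the 10 members in each library (CPM, log axis), circles for replicate 1 and triangles for replicate 2, open and at the bottom where a library had 0 reads. The grey band is the level of 3 reads. For 9 genes both NPC_LPCs points lie above both Hep_LPCs points, and for Oasl1 both Hep_LPCs points lie above both NPC_LPCs points.

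The 2 NPC_LPCs replicates were apart for every member. The ratio of replicate 2 to replicate 1 was 1.82 for Oas1a, 2.19 for Eif2ak2, 2.44 for Ddx58, 2.88 for Ifih1, 3.36 for Oas2 and 3.76 for Oas3. It was 11.3 for Oasl1, 13.4 for Zbp1, 15.5 for Dhx58 and 19.4 for Oasl2. The exact 95% counting intervals of all 10 ratios lay above 1, and the median was 3.56, where the median over all 12867 genes was 0.997. At least 4-fold higher in replicate 2 were 4 of 10 members, where 2.70% of all genes were, and 9 of 10 were at least 2-fold higher (7.83% of all genes). For such counts a library at 0 reads was set to 3 reads, and genes with at most 3 reads in both replicates were not counted. This gap was known when the members were chosen, so these counts describe it and test nothing.

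The other groups showed gaps of another size or direction. In Bec_LPCs, whose replicates were otherwise the closest, 4 members were at least 2-fold lower in replicate 2 (1.16% of all genes were). Replicate 1 was 3.45-fold above replicate 2 for Oas1a, 2.53-fold for Oas3, 2.19-fold for Oasl2 and 2.02-fold for Dhx58, and the counting intervals of 6 members excluded equal levels. In Hep_LPCs, Oasl1 was 1.98-fold and Ddx58 1.50-fold higher in replicate 2. Dhx58 was 5.07-fold higher there on 10 and 2 reads, and for the remaining members the counting interval included 1 or a library was at 0.

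**Figure D3:**
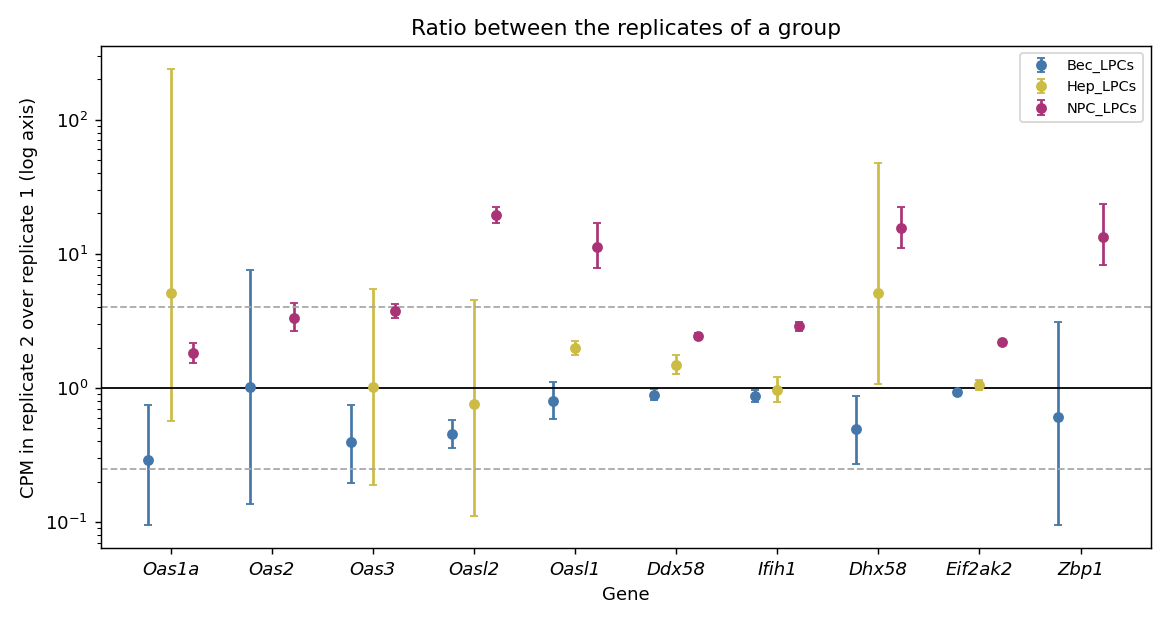
Ratio of replicate 2 to replicate 1 for each member within Bec_LPCs, Hep_LPCs and NPC_LPCs (log axis, bars are exact 95% counting intervals, dashed lines are 4-fold, and members with a library at 0 reads are left out). All 10 NPC_LPCs ratios lie above 1, from 1.82 for Oas1a to 19.4 for Oasl2, while 9 of 10 Bec_LPCs ratios lie below 1.

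Hep_LPCs and NPC_LPCs were fitted on the 4 libraries of these groups. The members were chosen with this comparison known, so their values are a description. In all, 9 members were lower in Hep_LPCs with no overlap of libraries (27.7% of all genes were) and 1, Oasl1, was higher with no overlap (28.9% of all genes). Among the members lower in Hep_LPCs, fitted log2 fold changes ± SE were nearest 0 for Eif2ak2 (-1.72 ± 0.41). They were -3.13 ± 0.51 for Ddx58 and -3.13 ± 0.55 for Ifih1, -5.64 ± 1.60 for Dhx58, -6.54 ± 0.83 for Oas1a and -6.78 ± 1.76 for Zbp1. The furthest from 0 with reads in both groups were Oas3 (-7.71 ± 0.89) and Oasl2 (-9.23 ± 1.88), and Oasl1 was at 1.71 ± 1.08. Their median was -5.82 with Oas2 at its bound, against -0.0044 over all genes. By edgeR's quasi-likelihood test at an adjusted p under 0.05, 2 members were called lower, Oas1a and Oas3 (0.428% of all 12159 genes were). Neither kept its call without Hep_LPCs replicate 1 or Hep_LPCs replicate 2. These fits leave 1 library in Hep_LPCs, and the loss held over all genes, so it is not particular to Oas1a and Oas3. There Oas1a was at -5.81 and -8.04 and Oas3 at -7.68 and -7.72. Without NPC_LPCs replicate 1 or 2, Oas1a was at -6.91 and -6.02, Oas3 at -8.36 and -6.43 and Oasl1 at 0.85 and 4.36. Oas1a was not called without NPC_LPCs replicate 2, and without NPC_LPCs replicate 1 more members were called than in the full fit. Either fit leaves 1 library in NPC_LPCs. Limma-voom called neither Oas1a nor Oas3 (adjusted p = 0.0851 and 0.129), and limma on FPKM did not call Oas3 (adjusted p = 0.0512).

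Bec_LPCs and NPC_LPCs were set against each other in the fit of all 6 libraries. Of the 10 members, 4 were called lower and none higher in Bec_LPCs, where 6.44% of all 12867 genes were called lower, and 9 were lower with no overlap (33.0% of all genes). Oas2 fell at a log2 fold change of -6.40 ± 0.91 (adjusted p = 0.0231), Oas3 at -5.54 ± 0.82 (adjusted p = 0.0184) and Oas1a at -4.87 ± 0.82 (adjusted p = 0.0239). Ddx58 fell at -2.22 ± 0.45 (adjusted p = 0.0373). No call was made for Zbp1 (-5.33 ± 1.47, adjusted p = 0.0706), Oasl2 (-4.24 ± 1.31, adjusted p = 0.0895), Dhx58 (-3.83 ± 1.33, adjusted p = 0.116), Ifih1 (-1.57 ± 0.48, adjusted p = 0.0860) or Eif2ak2 (-1.34 ± 0.36, adjusted p = 0.0670). Oasl1, whose libraries overlapped, was at -1.66 ± 1.01 (adjusted p = 0.312), and without NPC_LPCs replicate 2 its sign turned (0.97, adjusted p = 0.301). The median member was at -4.04, against 0.01 over all genes. None of the 4 calls was kept without Bec_LPCs replicate 1 or without Bec_LPCs replicate 2. These fits leave 1 library in Bec_LPCs, and calls over all genes fell there as well. Without NPC_LPCs replicate 2, which leaves 1 library in NPC_LPCs, Oas2 and Oas3 kept their calls and Oas1a and Ddx58 did not. Without NPC_LPCs replicate 1, which also leaves 1 library there, more members were called than in the full fit. Oas2, Oas3, Oas1a and Ddx58 were then at -7.07, -6.25, -5.28 and -2.77. Without NPC_LPCs replicate 2 they were at -5.28, -4.29, -4.37 and -1.44. By limma-voom Oas3 missed the threshold (adjusted p = 0.0515).

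Bec_LPCs and Hep_LPCs share the fit of 6 libraries, and here no member was called by edgeR's test (3 at an unadjusted p under 0.05), where 33.4% of all genes were called in either direction. Of the members, 8 had libraries higher in Bec_LPCs with no overlap (40.8% of all genes), but Oas2 and Zbp1 had at most 3 reads in a Bec_LPCs library and cannot be ranked, which leaves 6. Oasl1 was lower with no overlap (36.8% of all genes). Oasl2 was at 4.95 ± 1.75 (adjusted p = 0.0748), Ifih1 at 1.53 ± 0.48 (adjusted p = 0.0562) and Oasl1 at -3.40 ± 1.06 (adjusted p = 0.0546). Oas3 was at 2.14 ± 0.97 and Dhx58 at 1.78 ± 1.44 (adjusted p = 0.134 and 0.369), and Ddx58 was at 0.88 ± 0.44 (adjusted p = 0.166). Oas1a, whose libraries overlapped, was at 1.66 ± 0.94 (adjusted p = 0.212) and Zbp1, on 8 and 2 pooled reads, at 1.44 ± 1.91 (adjusted p = 0.584). Eif2ak2 was nearest to 0, at 0.35 ± 0.36 (adjusted p = 0.471). DESeq2's Wald test called 4 members and limma-voom 1, where they called 42.0% and 36.5% of all genes. Leaving out NPC_LPCs replicate 1 or NPC_LPCs replicate 2 leaves 1 library in that group. The log2 fold change of Oasl1 was then -3.41 and -3.40, near that of the full fit. In an edgeR fit of only these groups' 4 libraries, 3 of 7 members tested were called (39.3% of all genes). Oasl1 was called lower and Oasl2 and Ifih1 higher in Bec_LPCs (adjusted p = 0.00943, 0.0105 and 0.00849). The absence of calls thus depended on the libraries in the fit.

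**Figure D4:**
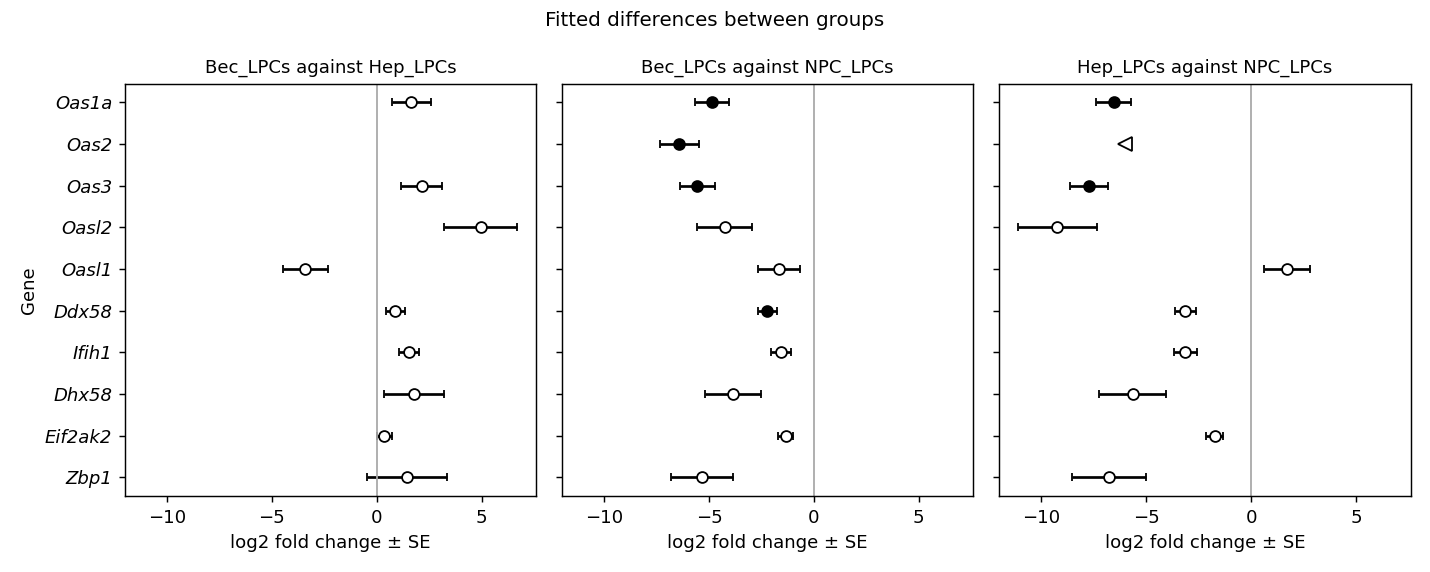
Fitted log2 fold change ± SE of each member in the 3 comparisons, filled where edgeR's adjusted p is under 0.05. The open triangle is the lower bound for Oas2, at 0 reads in Hep_LPCs, and it has no value between Bec_LPCs and Hep_LPCs. Oasl1 is the only member right of 0 in Hep_LPCs against NPC_LPCs and the only one left of 0 in Bec_LPCs against Hep_LPCs.

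Around these sensors, 11 lists of pathway genes were followed, 121 genes of which 117 were in the tables and 100 were tested. In Hep_LPCs against NPC_LPCs 5 were called lower and 0 higher, where 0.428% and 0.354% of all genes were. In Bec_LPCs against NPC_LPCs 26 were called lower and 0 higher, where 6.44% and 4.89% of all genes were. In Bec_LPCs against Hep_LPCs 17 were called higher and 16 lower, where 16.1% and 17.2% of all genes were. Like the members, these lists were drawn up with earlier results of these data known. Single libraries moved these counts, in alternatives added after the data were seen. In Hep_LPCs against NPC_LPCs no call was kept without Hep_LPCs replicate 1 or Hep_LPCs replicate 2, and all were kept without NPC_LPCs replicate 1. Fits with 1 library left in Hep_LPCs lost their calls over all genes, so that loss is not particular to these lists. Without NPC_LPCs replicate 2, 6 were called and 2 of the 5 calls were kept. In Bec_LPCs against NPC_LPCs 3 of the 26 calls were kept without Bec_LPCs replicate 1, 2 without Bec_LPCs replicate 2, 15 without NPC_LPCs replicate 1 and 14 without NPC_LPCs replicate 2. In Bec_LPCs against Hep_LPCs 4 of 33 calls were kept without Bec_LPCs replicate 1, 3 without Bec_LPCs replicate 2, and 20 without Hep_LPCs replicate 1. Single calls named below should be read with those counts.

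Upstream, interferon genes were all but silent. Of 12 type I, II and III interferon genes, 3 had any read, with 6 reads in all, and Ifnb1 had 1 read in 1 Bec_LPCs library and none elsewhere. The receptors were expressed in every group. Ifnar1, a chain of the type I interferon receptor, was at 103 and 106 CPM in Bec_LPCs, 57.9 and 61.4 CPM in Hep_LPCs, and 87.5 and 102 CPM in NPC_LPCs (Bec_LPCs against Hep_LPCs 0.81 ± 0.16, adjusted p = 0.0159 by edgeR). Ifnar2, the other chain, was at 23.3 and 23.7 CPM in Bec_LPCs, 46.5 and 38.2 CPM in Hep_LPCs, and 75.3 and 64.9 CPM in NPC_LPCs, lower in Bec_LPCs than in NPC_LPCs (-1.58 ± 0.19, adjusted p = 0.0101). Jak2, a kinase of several cytokine receptors, was also lower in Bec_LPCs than in NPC_LPCs (-1.36 ± 0.31, adjusted p = 0.0461).

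Stat2 and Irf9, which carry the interferon signal to the nucleus, were highest in NPC_LPCs. Stat2 was at 24.7 and 18.0 CPM in Bec_LPCs, 24.1 and 31.7 CPM in Hep_LPCs, and 125 and 193 CPM in NPC_LPCs, and fell both in Bec_LPCs against NPC_LPCs (-2.90 ± 0.31, adjusted p = 0.00772) and in Hep_LPCs against NPC_LPCs (-2.53, adjusted p = 0.0481). Irf9 was at 24.5 and 20.96 CPM in Bec_LPCs, 7.43 and 9.97 CPM in Hep_LPCs, and 40.9 and 71.1 CPM in NPC_LPCs, higher in Bec_LPCs than in Hep_LPCs (1.39 ± 0.33, adjusted p = 0.0256). Of the 12 genes of receptors and JAK-STAT signalling, 5 were called lower in Bec_LPCs than in NPC_LPCs (6.44% of all genes were) and 1 lower in Hep_LPCs than in NPC_LPCs (0.428% of all genes), with no call the other way.

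Around MAVS, Mavs and Irf3 gave no call, while Irf7 and several partners were lower in Bec_LPCs than in NPC_LPCs. Of 10 RIG-I-like receptor ubiquitin ligases and adaptors 2 were called lower there, and of 10 downstream kinases and transcription factors 4 were (6.44% of all genes). None was called higher, and the rest of both lists gave no call in that comparison. Mavs itself was at 47.6 and 40.1 CPM in Bec_LPCs, 62.5 and 56.4 CPM in Hep_LPCs, and 52.9 and 44.0 CPM in NPC_LPCs. Irf3, the constitutive factor that RIG-I and MDA5 activate, was at 47.7 and 45.7 CPM in Bec_LPCs, 44.5 and 52.6 CPM in Hep_LPCs, and 38.3 and 46.5 CPM in NPC_LPCs. Irf7, its interferon-raised relative and the known target of Oasl1, was at 2.53 and 1.67 CPM in Bec_LPCs, 2.28 and 1.19 CPM in Hep_LPCs, and 13.3 and 117 CPM in NPC_LPCs. It fell in Bec_LPCs against NPC_LPCs (-4.95 ± 1.08, adjusted p = 0.0434). Ikbke and Tank, a kinase and a scaffold of this pathway, were lower in Bec_LPCs than in NPC_LPCs (-1.66 ± 0.29 and -0.90 ± 0.21, adjusted p = 0.0273 and 0.0497), as was Irf5 (-2.05 ± 0.40, adjusted p = 0.0341). Trim14, an adaptor at MAVS, and Zc3h12a, a ribonuclease, were lower in Bec_LPCs too (-4.98 ± 0.83 and -1.63 ± 0.24, adjusted p = 0.0238 and 0.0184). Ddx60, a helicase raised by interferon, was at 1.90 and 1.84 CPM in Bec_LPCs, 0 in both Hep_LPCs libraries, and 5.14 and 27.2 CPM in NPC_LPCs.

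On the OAS branch, Abce1, known as a ribosome recycling factor, was lower in Bec_LPCs than in Hep_LPCs (-0.96 ± 0.21, adjusted p = 0.0203). Oas1g, the close copy of Oas1a, fell in Bec_LPCs against NPC_LPCs (-4.36 ± 0.68, adjusted p = 0.0278). Oas1c, another OAS1 copy, was at 3.04 and 2.06 CPM in Bec_LPCs, 1.70 and 0.771 CPM in Hep_LPCs, and 4.56 and 10.01 CPM in NPC_LPCs, with no call. On the PKR branch, Ppp1r15a, which reverses eIF2 phosphorylation, Atf4, the factor translated when eIF2 is phosphorylated, and Eif2ak1, the heme-regulated eIF2 kinase, were lower in Bec_LPCs than in Hep_LPCs (-2.24 ± 0.21, -1.82 ± 0.27 and -1.14 ± 0.16, adjusted p = 0.00270, 0.00812 and 0.00709). Of the 10 genes of that list, 2 were called higher and 5 lower in Bec_LPCs against Hep_LPCs, where 16.1% and 17.2% of all genes were, and none was called in Hep_LPCs against NPC_LPCs.

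On the ZBP1 branch, Ripk3, the kinase through which ZBP1 acts, was at 4.09 and 4.33 CPM in Bec_LPCs, 1.05 and 1.31 CPM in Hep_LPCs, and 10.1 and 0.610 CPM in NPC_LPCs. Its NPC_LPCs replicates thus stood in the opposite order to those of Zbp1. Casp8 and Fadd, which restrain necroptosis, were lower in Bec_LPCs than in Hep_LPCs (-0.89 ± 0.15 and -1.77 ± 0.33, adjusted p = 0.00998 and 0.0139), and Cflar, which joins them, was higher (1.24 ± 0.17, adjusted p = 0.00623). Adar, the enzyme that edits double-stranded RNA and has an interferon-raised promoter, was at 57.3 and 58.0 CPM in Bec_LPCs, 60.3 and 61.8 CPM in Hep_LPCs, and 92.3 and 196 CPM in NPC_LPCs, with no call. Its relative Adarb1 was higher in Bec_LPCs than in Hep_LPCs (1.45 ± 0.27, adjusted p = 0.0133), the only call in that list of 9 tested genes. Dhx15 and Stau1, RNA-binding proteins of that list, gave none.

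Among sensors outside the cytosolic RNA set, Tlr3, the endosomal receptor of double-stranded RNA, was at 45.6 and 43.9 CPM in Bec_LPCs, 14.98 and 11.9 CPM in Hep_LPCs, and 35.4 and 76.1 CPM in NPC_LPCs, higher in Bec_LPCs than in Hep_LPCs (1.74 ± 0.38, adjusted p = 0.0211). Sting1, the adaptor of DNA sensing, was at 31.8 and 29.7 CPM in Bec_LPCs, 0.0585 and 0.178 CPM in Hep_LPCs, and 9.93 and 66.1 CPM in NPC_LPCs (Bec_LPCs against Hep_LPCs 7.95 ± 1.24, adjusted p = 0.00888). Ifi203, of the interferon-inducible p200 family, was at 1.35 and 0.943 CPM in Bec_LPCs, 1.23 and 1.72 CPM in Hep_LPCs, and 55.5 and 113 CPM in NPC_LPCs, and fell in both groups against NPC_LPCs (-6.19 ± 0.49, adjusted p = 0.00316, and -5.86, adjusted p = 0.0336). Trex1, a DNA exonuclease, was listed at 0 in both Bec_LPCs tables, and was at 14.3 and 16.1 CPM in Hep_LPCs and 13.7 and 27.4 CPM in NPC_LPCs. There a difference in counting cannot be told apart from one in level.

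The list nearest to the members was that of other interferon-stimulated effectors. All 18 of its tested genes were lower in Hep_LPCs than in NPC_LPCs by fitted value, at a median log2 fold change of -5.27 (all genes -0.0044), and 3 passed the test, where 0.428% of all genes did. That median does not move with Ifit1, at 0 reads in Hep_LPCs, set to its bound. In Bec_LPCs against NPC_LPCs 5 passed, all lower, where 6.44% of all genes were called lower. In Bec_LPCs against Hep_LPCs 4 of 18 passed, all higher, a share near that of all genes (16.1%). Samd9l, an antiviral factor, was lower in Hep_LPCs than in NPC_LPCs (-2.85, adjusted p = 0.0484) and in Bec_LPCs than in NPC_LPCs (-1.79 ± 0.33, adjusted p = 0.0302). Ifi27 was at 28.1 and 23.7 CPM in Bec_LPCs, 1.46 and 2.02 CPM in Hep_LPCs, and 18.5 and 17.4 CPM in NPC_LPCs, with NPC_LPCs replicates that were nearly equal. Ifit2 was lower in Bec_LPCs than in NPC_LPCs (-1.37 ± 0.18, adjusted p = 0.0125), and its NPC_LPCs replicates were likewise close, at 48.8 and 48.1 CPM. Of the feedback inhibitors, Usp18, which removes ISG15 and damps the type I receptor, was at 14.1 and 14.3 CPM in Bec_LPCs, 1.70 and 1.42 CPM in Hep_LPCs, and 9.58 and 68.7 CPM in NPC_LPCs (Bec_LPCs against Hep_LPCs 3.18 ± 0.91, adjusted p = 0.0430). Socs3 and Irf2 were lower in Bec_LPCs than in NPC_LPCs (-2.56 ± 0.43 and -1.01 ± 0.23, adjusted p = 0.0239 and 0.0454).

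The gap between NPC_LPCs replicates was also wide in that effector list, where 13 of 18 genes were at least 4-fold higher in replicate 2 and the median ratio was 5.72. In the other 9 lists with tested genes the median ratio was 0.887 to 2.04.

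**Figure D5:**
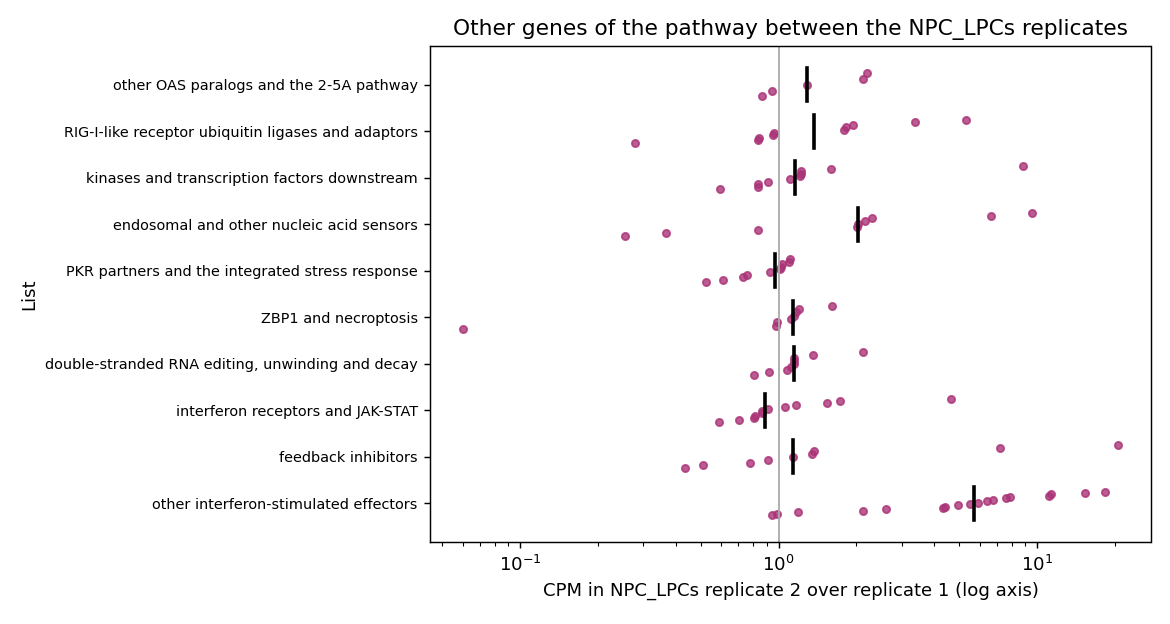
Ratio of NPC_LPCs replicate 2 to replicate 1 for each pathway list (log axis, 1 point a tested gene, vertical bars are medians). Most of the other interferon-stimulated effectors (median 5.72) lie far to the right of 1, and 1 point of the necroptosis list, Ripk3, lies far to the left.

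Over the 6 libraries the members shared a pattern, with Oasl1 apart. Pearson's r between a member's log2(CPM + 0.5) and the mean standardised profile of the 10 was 0.934 to 0.998 for 9 of them, with Eif2ak2 at 0.998, and -0.06 for Oasl1. Those values describe 6 libraries of 3 groups and include each gene in its own profile. Of 10210 other genes with at least 10 CPM in the highest library, the most alike was Ifi35 (r = 0.995), at 13.0 and 10.2 CPM in Bec_LPCs, 9.01 and 9.20 CPM in Hep_LPCs, and 17.3 and 45.2 CPM in NPC_LPCs. Next were Ifit3b (0.993), Ppp1r18 (0.991), Sp100 (0.991), Unc5b (0.989), Isg15 (0.989), Parp9 (0.987) and Lgals8 (0.985). Their spans differed: Sp100 was at 0.549 and 0.429 CPM in Bec_LPCs, 0 in both Hep_LPCs libraries, and 2.48 and 69.0 CPM in NPC_LPCs, whereas Unc5b was at 406 and 420 CPM in Bec_LPCs, 388 and 401 CPM in Hep_LPCs, and 518 and 673 CPM in NPC_LPCs.

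Markers of other cells were set beside these results. Of 12 leukocyte and macrophage markers, summed levels were 76.2 to 81.3 CPM in Bec_LPCs, 55.2 to 121 CPM in Hep_LPCs, and 74.9 to 248 CPM in NPC_LPCs, where replicate 1 had the higher sum. Cd14 and Cd68 made up most of these sums (161 and 52.7 CPM, and 83.9 and 20.9 CPM, in NPC_LPCs). Of the 12, 7 had at most 3 reads in both NPC_LPCs libraries, and Ptprc had 2 and 5 reads there. Lyz2 was highest in Bec_LPCs (12.2 and 14.4 CPM), as were Tyrobp and C1qa at few reads. Clec4f, the Kupffer cell lectin, was at 0 in all 6 libraries. Of 6 plasmacytoid dendritic cell markers, a cell type known for making interferon, sums were 71.6 to 82.2 CPM in Bec_LPCs, 35.2 to 42.4 CPM in Hep_LPCs, and 139 and 276 CPM in NPC_LPCs replicates 1 and 2. That list moved with the members, but it holds Bst2, an interferon-raised gene at 89.4 and 233 CPM in NPC_LPCs, and Siglech, its defining marker, was at 0 in all libraries. Sums of 8 lymphocyte and NK cell markers were at most 1.78 CPM and those of 7 endothelial markers 2.54 to 7.84 CPM. Sums of 9 mesenchymal and stellate markers were 1605 to 2279 CPM, of which Vim made up most. Without Vim the list was higher in Bec_LPCs: Acta2 was at 77.6 and 94.1 CPM in Bec_LPCs, 0 in both Hep_LPCs libraries, and 0 and 2.34 CPM in NPC_LPCs, and Col1a1 was at 63.7 and 76.9 CPM in Bec_LPCs, 4.27 and 1.90 CPM in Hep_LPCs, and 2.89 and 12.1 CPM in NPC_LPCs. Col3a1 and Pdgfrb were likewise highest in both Bec_LPCs libraries. Of 8 hepatocyte markers, sums were 105 to 128 CPM in Bec_LPCs, 257 to 265 CPM in Hep_LPCs, and 29.2 to 51.4 CPM in NPC_LPCs. Hnf4a made up most of them, and Alb had 23 and 10 reads in Bec_LPCs, 41 and 2 reads in Hep_LPCs, and 2 and 3 reads in NPC_LPCs. Of 11 biliary and progenitor markers, sums were 4884 to 5703 CPM in Bec_LPCs, 4583 to 6929 CPM in Hep_LPCs, and 11536 and 5722 CPM in NPC_LPCs replicates 1 and 2. Spp1 alone made up 9410 and 4314 CPM of the NPC_LPCs sums. Defining biliary genes stood in another order: Krt7 was at 298 and 365 CPM in Bec_LPCs, 109 and 174 CPM in Hep_LPCs, and 1.50 and 17.7 CPM in NPC_LPCs, and Epcam was at 58.95 and 65.7 CPM in Bec_LPCs, 0.351 and 1.84 CPM in Hep_LPCs, and 0.115 and 0.610 CPM in NPC_LPCs. Krt19, Cldn7, Prom1 and Cdh1 were also lower in both NPC_LPCs libraries than in Bec_LPCs. The part of these in the members' levels was not tested.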

How the data were processed

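The submitters' processing notes name Trimmomatic, HISAT2, Cufflinks, HTSeq, DESeq and mm10, without versions, settings or annotation. The authors deposited 1 table for each library: read counts per gene symbol for Bec_LPCs, and counts with FPKM (scaled for length and depth by the authors, used only in an alternative) for the others, per the file headers. Unnamed rows of the Bec_LPCs tables (44 and 41 reads, 0.000191% and 0.000181%) were left out. Older symbols were updated (16 in the Bec_LPCs tables, 837 in the others), giving 20571 shared symbols, which held 95.3% to 99.5% of the counts.

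Counts were tested with edgeR 4.0.16 in R 4.3.3 (filterByExpr, TMM, robust glmQLFit, glmQLFTest, two-sided), with Benjamini-Hochberg adjustment over all genes tested and calls at an adjusted p under 0.05. All 10 members passed the filter in each comparison. SE is the size of the log2 fold change over the root of F. Ratios of pooled reads have exact binomial 95% intervals. The script was tested on simulated counts. Alternatives used DESeq2 1.42.0 and limma 3.58.1. The members and lists were chosen with earlier results of these data known, so no test on them is independent support. Named genes were the 10 members, fixed key genes and up to 3 others of each list by smallest adjusted p, and the 8 genes most like the members' mean profile. Some of the fixed key genes are not reported here. Exons and overlaps are from GENCODE M21, and copies were found with blastn 2.17.0 (at least 95% identity over 200 bases).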

Additional observations from a re-analysis of the deposited data

How the results depend on the processing

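With 2 libraries a group, calls on the members moved with the test and the libraries, while directions seldom did. Percentages below are the share of all genes called in the same setting, which moved too. Member calls in Hep_LPCs against NPC_LPCs were 2 as reported (0.781%), 5 with no low-count filter (2.93%) and 9 by DESeq2's Wald test (12.3%). Limma-voom called 0 (0.0411%), with 8 members at an unadjusted p under 0.05. There were 7 with all 6 libraries in the fit (9.90%) and 5 with the replicate number as a block (1.04%). In Bec_LPCs against NPC_LPCs they were 4 as reported (11.3%), 9 by DESeq2 (22.5%), 3 by limma-voom (14.1%) and 4 with the replicate block (5.98%). In Bec_LPCs against Hep_LPCs they were 0 as reported (33.4%), 1 with library size alone (34.5%) and 1 with no filter (24.9%). DESeq2 called 4 (42.0%), limma-voom 1 (36.5%) and the fit with the block 0 (26.3%). With only the 4 libraries compared, 3 of 7 members tested were called (39.3%). Member calls also moved in each comparison with 1 library left out, where a group can be down to 1 library. Pathway gene calls with 1 library left out, added after the data were seen, were 0 to 28, 2 to 34 and 3 to 45 in the same order (5, 26 and 33 as reported). The cause was not tested. A library left alone in its group is assumed to vary like the other groups. Replicate numbers gave no sign of pairing the samples: correlations of deviations were -0.0395, 0.0866 and -0.00851. Such values cannot exclude that libraries of the same number were prepared together. Of single-member fold changes under all alternatives, 1 changed sign, Oasl1 in Bec_LPCs against NPC_LPCs without NPC_LPCs replicate 2 (-2.58 to 0.97 over the libraries left out). Members past a 2-fold gap between replicates were 4 in Bec_LPCs and 9 in NPC_LPCs (0 and 4 at 4-fold), and 0 passed 8-fold in Hep_LPCs (2 at 4-fold, Oas1a and Dhx58, on 10 reads or fewer). At the depth of these libraries Oas2 and Zbp1 cannot be ranked between Bec_LPCs and Hep_LPCs.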
